A study of Homo sapiens with 6 samples.

Results

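TNFSF10 (TRAIL), its receptors TNFRSF10A, TNFRSF10B, TNFRSF10C and TNFRSF10D, osteoprotegerin (TNFRSF11B) and RANK ligand (TNFSF11) were compared between 2 human glioblastoma cell lines, T98G and U87MG. Members were all probe sets that the platform annotation assigns to 1 of these 7 genes alone. The rule gave 13 probe sets for 6 genes, out of 22215 probe sets that were not controls and 11963 genes with a probe set. TNFRSF10A was not analysed here, and another 2 probe sets that list TNFRSF10C together with a second gene were left out. Total RNA from each line was hybridised to 3 expression arrays, with no treatment named for either line, and both were grown in the same serum-containing medium. Per the labels, T98G undergoes apoptosis with the proteasome inhibitor bortezomib and with G5, an isopeptidase inhibitor, and partly withstands the necrosis caused by G5. U87MG is described the other way round, as withstanding apoptosis by both compounds and undergoing necrosis with G5. The labels do not say whether the arrays of a line came from separate cultures, so p-values measure the spread between these arrays, which may be technical.

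TRAIL is a ligand of the tumour necrosis factor family that is made as a membrane protein and can be shed. It starts apoptosis when it clusters TNFRSF10A or TNFRSF10B, whose death domains recruit the adaptor FADD and the initiator caspases. TNFRSF10C has no death domain and is held by a lipid anchor, and TNFRSF10D has a truncated one, so both bind TRAIL without passing on a full death signal. Osteoprotegerin is a secreted decoy receptor, known first for keeping RANK ligand from its receptor RANK on osteoclast precursors, and it also binds TRAIL.

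All values below are log2 expression values per probe set, and differences are U87MG minus T98G, with n = 3 arrays per line. A probe set was called where its limma adjusted p, corrected over all 22215 probe sets, was under 0.05 and the difference reached 2-fold. Values of different probe sets were not set against each other, since their probes bind differently. Control probe sets for the bacterial trpn gene read 3.32 to 4.03, which served as the floor of the scale. Arrays of 1 line correlated at 0.991 to 0.997 and arrays of different lines at 0.934 to 0.938 across probe sets. The poly-A controls averaged 5.30 on U87MG replicate 3 and 6.10 to 6.84 on the other 5 arrays. Of 10 astroglial and glioma markers, 2 were called higher in U87MG (NES 5.85-fold and SLC1A3 2.05-fold), 1 lower (SOX9, 3.98-fold) and the others neither. Among the latter, VIM and CD44 were bright (14.59 and 14.85 for VIM in T98G and U87MG, 13.93 and 13.68 for CD44) and S100B was close to the floor (4.13 and 4.23). Of 6 leukocyte markers, CSF1R was called higher in U87MG (6.38 in T98G, 7.39 in U87MG) and the others neither, from PTPRC at 4.33 and 4.55 to CD3E at 7.34 and 7.16. Of 6 endothelial markers, KDR was called higher (5.03 and 8.29) and the others neither, from CDH5 at 4.03 and 3.95 to TEK at 6.40 and 6.36. Of 6 epithelial markers, KRT18 was called 44.7-fold lower (12.05 and 6.57) and the others neither, from KRT19 at 4.14 and 4.07 to KRT5 at 6.24 and 6.14. EPCAM, 1.85-fold higher in U87MG, fell short of 2-fold (limma adjusted p = 0.00246). Because each array holds the RNA of a whole culture, fewer expressing cells and less RNA per cell cannot be told apart.

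Of the 13 probe sets, 1 was called higher in U87MG, 5 were called lower and 7 were neither. Over all 22215 probe sets, 5.93% were called higher and 6.33% lower. The probe sets called were the single one for TNFRSF10D (higher), both for TNFRSF11B and all 3 for TNFSF10 (lower). TNFRSF10B, TNFRSF10C and TNFSF11 had none. The median difference over the 13 probe sets was log2 -0.073, against -0.011 over all probe sets. On 7 of the 13 probe sets the arrays of T98G and U87MG were fully separated, as they were on 49.1% of all probe sets, so separation of the arrays alone was common in these data.

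**Figure D1:**
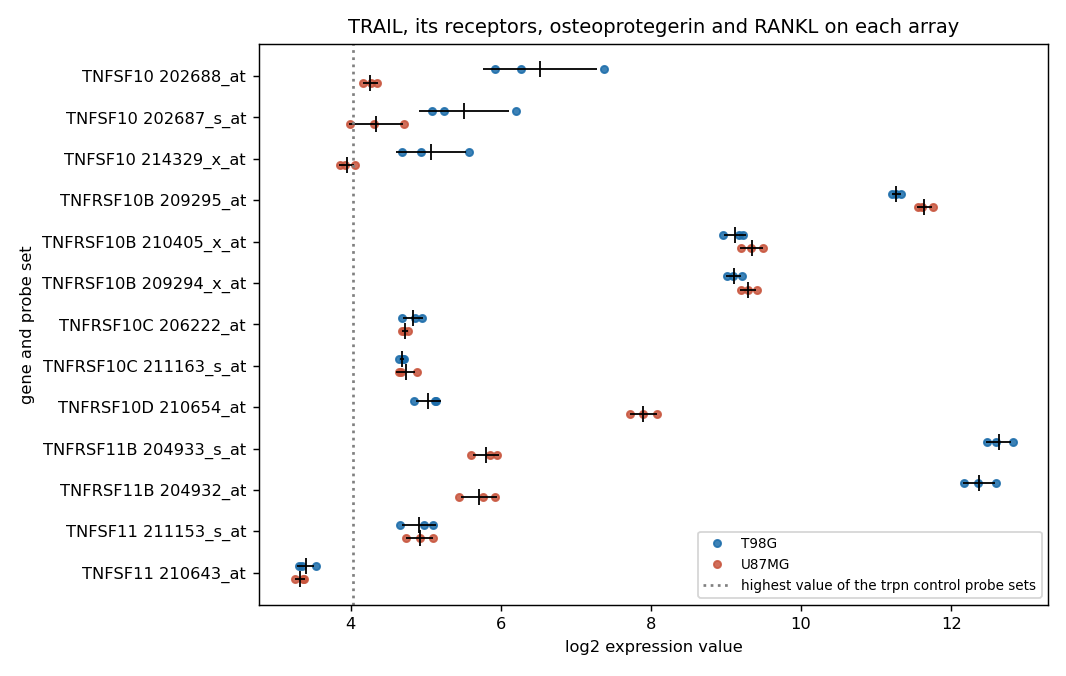
Log2 expression value (horizontal axis) of each member probe set (vertical axis) on each of the 6 arrays, blue for T98G and red for U87MG, with black ticks and bars for mean ± SD (n = 3 arrays) and a dotted line at the highest trpn control value, 4.03. The 2 lines are far apart for both TNFRSF11B probe sets and for TNFRSF10D, T98G spreads most for TNFSF10, and one TNFSF11 probe set lies below the dotted line on all arrays.

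TNFSF10, the ligand, was lower in U87MG on all 3 of its probe sets. The region before its start site is shown because TNFSF10 is known as an interferon-inducible gene and 16 of the 28 interferon-stimulated genes below were called, 12 of them lower in U87MG like TNFSF10 and 4 higher. Over all genes on their brightest probe set, 6.56% were called higher and 7.01% lower. Whether interferon has a part in the TNFSF10 difference was not tested. The 250 bases before the RefSeq start site lie at chr3:172523431-172523680 on the minus strand of GRCh38.p14. Capitals mark the matches to motifs that were searched on both strands.

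TNFSF10 upstream: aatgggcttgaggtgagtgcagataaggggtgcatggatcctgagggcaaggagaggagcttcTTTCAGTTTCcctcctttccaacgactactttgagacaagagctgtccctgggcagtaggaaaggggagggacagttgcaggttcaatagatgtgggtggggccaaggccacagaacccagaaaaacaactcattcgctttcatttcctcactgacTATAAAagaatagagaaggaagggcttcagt

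The first stretch of capitals matches the core of the interferon-stimulated response element, 2 GAAA half-sites 2 bases apart, on the other strand, and begins 187 bases before the start. This motif was present in 3.02% of 35116 upstream windows of the same length. The second matches the TATA box letters TATAAA, 31 bases before the start, which 10.7% of windows held. The gamma-activated sequence TTCNNNGAA (6.57% of windows) and the GC box GGGCGG (42.6%) had no match in this window. A match describes the letters only, and no binding was measured.

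The brightest TNFSF10 probe set, 202688_at, read 6.27, 5.92 and 7.38 in T98G replicates 1 to 3 and 4.28, 4.35 and 4.16 in U87MG. All T98G arrays were above all U87MG arrays, and T98G replicate 3 stood above the other T98G arrays. The means were 6.52 ± 0.76 and 4.27 ± 0.10 (SD), a difference of log2 -2.26 (SE 0.31, 95% interval -2.97 to -1.55, limma adjusted p = 0.000441), or 4.79-fold lower in U87MG. U87MG values lay just above the floor, so the amount of transcript left in that line is poorly measured.

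Probe set 202687_s_at read 5.25, 5.09 and 6.20 in T98G and 4.31, 3.99 and 4.71 in U87MG, at least 2.24-fold lower in U87MG with values under the floor set to it (log2 -1.18 as fitted, SE 0.29, limma adjusted p = 0.0106). Probe set 214329_x_at read 4.69, 4.94 and 5.58 in T98G and 3.86, 3.93 and 4.06 in U87MG, at least 2.04-fold lower (log2 -1.12, SE 0.21, limma adjusted p = 0.00232). T98G replicate 3 was again the highest array on both. Without it these 2 probe sets fell short of 2-fold, at log2 -0.83 and -0.86, while 202688_at had log2 -1.83 (limma adjusted p = 5.26e-05). The same 2 probe sets were not called by limma's treat test against a 1.5-fold difference (adjusted p = 0.239 and 0.112), while 202688_at was (adjusted p = 0.00333). The filter on dim probe sets removed all 3. Whether the 3 probe sets differ from each other in size was not tested.

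The 3 genes whose profile over the 6 arrays, centred on its mean, lay nearest to that of TNFSF10 were DEFB1, SCG2 and STON1, among 11957 genes outside the family. Their root mean square differences were 0.17, 0.26 and 0.26 on the log2 scale. DEFB1, an antimicrobial defensin, read 7.34, 7.09 and 8.04 in T98G and 5.15, 5.17 and 5.19 in U87MG. As for TNFSF10, T98G replicate 3 was the highest array for DEFB1, as it was for SCG2 (8.08, 7.64 and 8.41 in T98G) and STON1 (7.10, 6.96 and 7.67). The genes were selected for this likeness, which is a description.

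TNFRSF10B, the death-transmitting receptor measured here, was not called. Its brightest probe set, 209295_at, read 11.33, 11.21 and 11.26 in T98G and 11.56, 11.75 and 11.61 in U87MG. The arrays did not overlap, yet the difference was small, log2 0.37 (SE 0.10, interval 0.14 to 0.60), or 1.29-fold. Its limma adjusted p was 0.0175, so it missed the call through the 2-fold minimum alone. Probe set 209294_x_at read 9.10, 9.21 and 9.01 against 9.41, 9.29 and 9.20, a difference of 0.19 (-0.05 to 0.43, limma adjusted p = 0.201). Probe set 210405_x_at gave 0.22 (-0.06 to 0.49), with T98G at 8.96 to 9.23 and U87MG at 9.19 to 9.49. On both of these the lines overlapped, and the upper ends of all 3 intervals stayed under a 2-fold difference.

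TNFRSF10C, the lipid-anchored decoy, read low in both lines and was not called. Probe set 206222_at had 4.95, 4.69 and 4.85 in T98G and 4.71, 4.69 and 4.77 in U87MG (log2 -0.11, -0.34 to 0.13). Probe set 211163_s_at had 4.65, 4.70 and 4.71 in T98G and 4.68, 4.88 and 4.65 in U87MG (log2 0.050, -0.18 to 0.28). The arrays of the lines overlapped on both. All values were within 1 log2 unit of the floor, so a difference in a scarce transcript could be compressed.

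TNFRSF10D, the decoy with a truncated death domain, was higher in U87MG. Its probe set 210654_at read 5.13, 5.14 and 4.84 in T98G and 7.90, 8.08 and 7.72 in U87MG. The lowest U87MG array was 7.72 and the highest T98G array 5.14, so the lines were far apart. The means were 5.04 ± 0.17 and 7.90 ± 0.18, a difference of log2 2.86 (SE 0.13, 2.57 to 3.16, limma adjusted p = 3.98e-07), or 7.28-fold. With each array left out in turn the difference ran from 2.77 to 2.95. The gene rests on this 1 probe set. Its nearest genes by profile were PID1, CERS6 and SATB1, at root mean square differences of 0.12, 0.12 and 0.13 (log2).

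TNFRSF11B, which encodes osteoprotegerin, had the largest difference of the family and was lower in U87MG. Probe set 204933_s_at read 12.48, 12.60 and 12.82 in T98G and 5.86, 5.95 and 5.60 in U87MG. The second probe set, 204932_at, read 12.35, 12.17 and 12.59 in T98G and 5.76, 5.92 and 5.45 in U87MG. Both separated the lines on every array. The differences were log2 -6.83 (SE 0.13, -7.13 to -6.53, limma adjusted p = 5.73e-09) and -6.66 (SE 0.15, -7.01 to -6.31, limma adjusted p = 1.36e-08), or 114-fold and 101-fold. Over the alternatives the first ran from log2 -6.90 to -6.73 and the second from -6.76 to -6.53. All 3 U87MG arrays read over the floor on both probe sets, but their means lay only at percentiles 25.7 and 24.5 of all probe sets. The amount of transcript left in U87MG, and with it the size of the fold, is therefore poorly measured.

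Osteoprotegerin is made by osteoblasts, stromal cells and vascular cells, so markers of such cells are set beside it. Of 6 measured osteoblast and stromal markers, COL1A1 and LUM were called higher in U87MG, against the direction of TNFRSF11B. LUM lay under the floor on all T98G arrays. PDGFRB was called 9.03-fold lower, a smaller difference than that of COL1A1, which was the largest of the list. IBSP, ALPL and DCN were not called (log2 0.11, 0.28 and 0.43). The list averaged 6.42 to 6.67 on T98G arrays and 7.02 to 7.32 on U87MG arrays. The endothelial markers, of which KDR was the 1 called, averaged 5.32 to 5.45 in T98G and 5.79 to 6.08 in U87MG. Their part in the TNFRSF11B difference was not tested. The genes nearest to TNFRSF11B by profile were GSTM3, PDGFD and COLEC12, at root mean square differences of 0.26, 0.29 and 0.33 (log2).

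TNFSF11, the bone ligand that osteoprotegerin also captures, was not called. Probe set 210643_at lay under the floor on all 6 arrays, at 3.32, 3.36 and 3.54 in T98G and 3.26, 3.37 and 3.38 in U87MG, so no fold is given. Probe set 211153_s_at read 5.10, 4.98 and 4.66 in T98G and 4.93, 4.74 and 5.09 in U87MG, a difference of log2 0.0090 (-0.32 to 0.34). The lines overlapped on both. TNFRSF11A, which encodes the receptor RANK, was called higher in U87MG on its 1 probe set, at 2.11-fold (5.15, 5.07 and 4.98 in T98G against 6.29, 5.97 and 6.18 in U87MG, log2 1.08, SE 0.11, limma adjusted p = 9.18e-05). That probe set was dim in both lines, at percentiles 16.6 and 30.7 of all probe sets in T98G and U87MG. The filter on dim probe sets removed it.

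**Figure D2:**
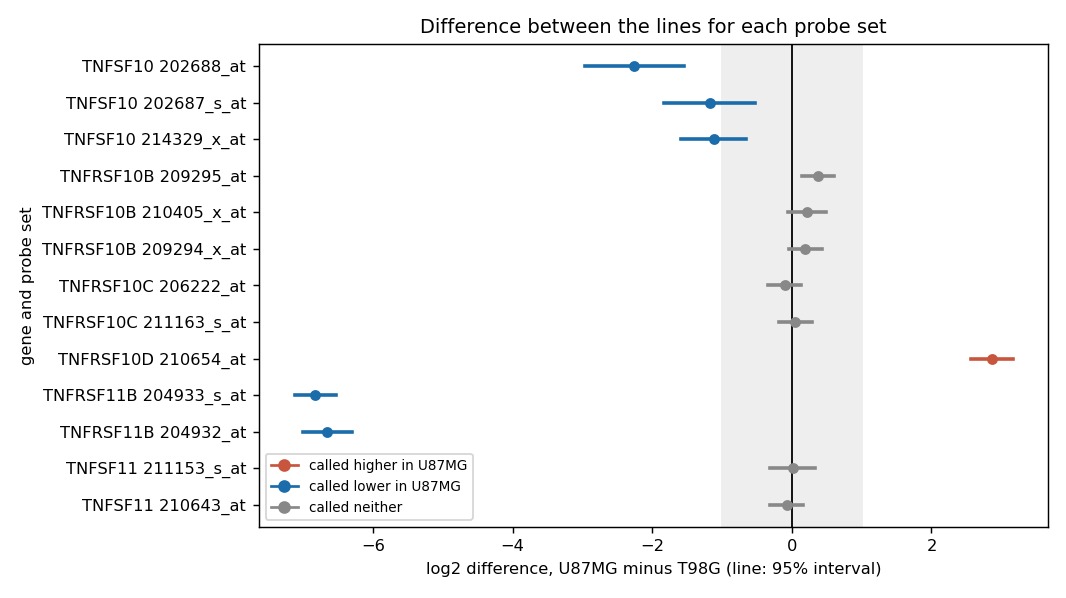
Log2 difference, U87MG minus T98G (horizontal axis), of each member probe set (vertical axis), with its 95% interval as a line, red where called higher, blue where called lower and grey where neither; the grey band spans differences under 2-fold. TNFRSF11B lies near log2 -6.8 and -6.7 and TNFRSF10D at 2.86, while every TNFRSF10B, TNFRSF10C and TNFSF11 interval stays inside the band.

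The receptor genes TNFRSF10B, TNFRSF10C, TNFRSF10D and TNFRSF10A lie in this order on chromosome 8 in the RefSeq gene table. Their measured neighbours were compared to see whether the difference of TNFRSF10D was shared. On the side of TNFRSF10B, BIN3-IT1, EGR3 and RHOBTB2 had log2 differences of -0.61, -0.089 and 0.45. On the far side, CHMP7, R3HCC1 and LOXL2 had 0.25, -0.11 and -0.25. None of these 6 genes was called by limma (2 had an unadjusted p under 0.05), although BIN3-IT1 and RHOBTB2 had an adjusted p under 0.05 (0.00465 and 0.00636). TNFRSF10D was the 1 gene of the 9 measured in this stretch that was called. Over all genes on their brightest probe set, 6.56% were called higher in U87MG and 7.01% lower, so few calls among 9 genes are usual in these data. Whether the difference is particular to TNFRSF10D was not tested.

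Beside TNFRSF11B, EIF3H, RAD21 and EXT1 had log2 -0.32, -0.074 and -0.19 on one side and were not called. On the other side COLEC10 had -0.34 and was not called, while CCN3, a matricellular protein, and ENPP2, the enzyme that makes lysophosphatidic acid, were 4.38-fold and 10.6-fold higher in U87MG, against the direction of TNFRSF11B. Beside TNFSF10, 5 of 6 genes were not called, with differences from -0.71 (TBL1XR1) to 0.22 (FNDC3B). NLGN1, a neuronal adhesion gene, was 9.88-fold higher in U87MG with the T98G values set to the floor. Beside TNFSF11, DNAJC15 and ENOX1 were 3.43-fold and 3.29-fold higher in U87MG, AKAP11 had log2 0.78, and DGKH, FABP3P2 and SMIM2 had -0.12, -0.10 and -0.0039.

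**Figure D3:**
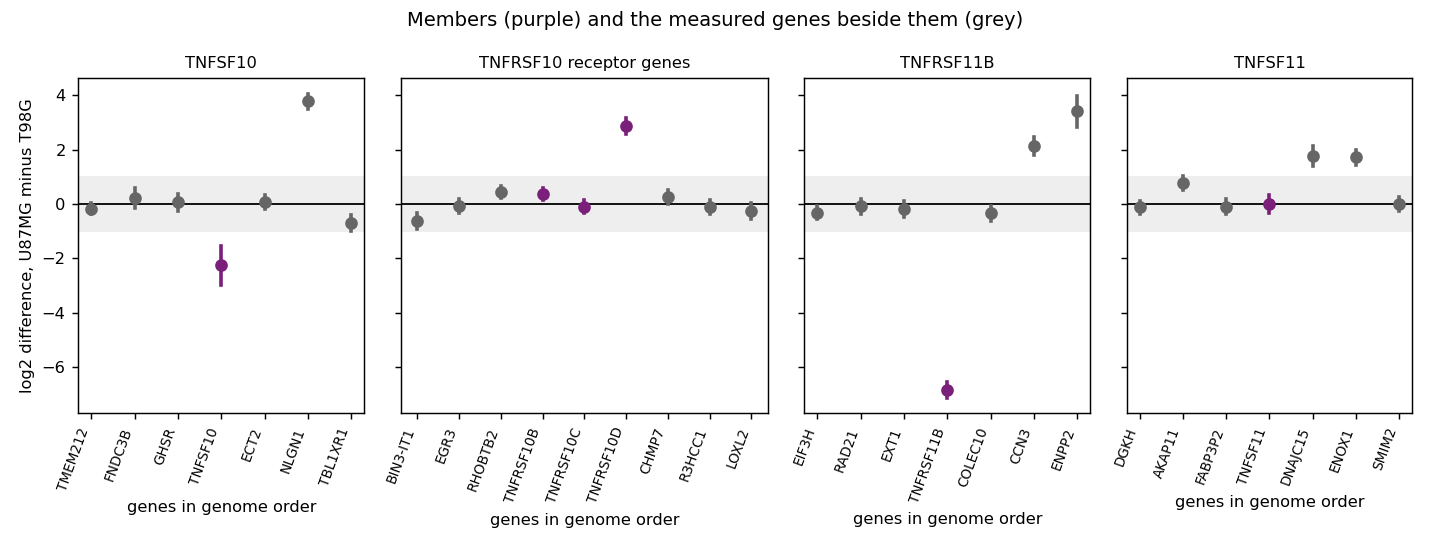
Log2 difference, U87MG minus T98G (vertical axis), with 95% intervals as lines, for members (purple) and the 3 measured genes on each side (grey) in genome order along the horizontal axis, each on its brightest probe set; the grey band spans differences under 2-fold. TNFRSF10D, TNFRSF11B and TNFSF10 stand away from the genes directly beside them, and NLGN1, CCN3 and ENPP2 lie in the other direction from their member.

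For the rest of the pathway, each gene was read on its brightest probe set. Over all 11963 genes read this way, 6.56% were called higher in U87MG and 7.01% lower, with a median difference of log2 -0.0091. Below the receptor, in the TRAIL signalling complex, limma called 1 of 10 measured genes higher and 0 lower (2 were lower at an unadjusted p under 0.05), with a median of log2 0.32. A limma adjusted p under 0.05 short of 2-fold was found for 5 of the 10, as for 26.7% of all genes, and 6 of the 10 had an adjusted p under 0.05 at any size, as had 40.3% of all genes. The called gene was TNFAIP3, a ubiquitin editor that restrains caspase 8 and NF-kB signalling, at 2.58-fold higher (7.69, 7.66 and 8.00 in T98G against 8.81, 9.40 and 9.23). The adaptor FADD read 10.70, 10.81 and 10.74 in T98G and 11.39, 11.48 and 11.47 in U87MG (log2 0.69, 0.48 to 0.91). CASP8, the initiator caspase, gave 0.69 on its brightest probe set and 0.75 on the other, and CASP10, its relative, gave 0.073 (-0.38 to 0.53).

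CFLAR, the FLIP inhibitor that competes with caspase 8 for FADD, read 8.87, 9.34 and 9.17 in T98G and 10.26, 10.09 and 9.86 in U87MG. Its difference of log2 0.94 (0.60 to 1.28, limma adjusted p = 0.0011) fell just under the 2-fold minimum. Among its 11 probe sets, at -0.039 to 1.32, 5 were called higher. CYLD, another gene of the signalling complex list not called on its brightest probe set, had 3 of 7 probe sets called higher (log2 0.15 to 1.32). Dropping either T98G replicate 2 or U87MG replicate 3 raised the list count from 1 to 2.

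Of 14 genes of the mitochondrial and executioner step, 1 was higher, 1 lower and 12 neither, with a median of 0.057. BID, which caspase 8 cuts to carry the signal to mitochondria, was 2.41-fold lower in U87MG (10.97, 10.97 and 10.77 against 9.66, 9.61 and 9.63). Its other probe set had log2 -1.65, so both were called. BAX, a pore former of the outer mitochondrial membrane, was 2.20-fold higher (7.42, 7.68 and 7.30 against 8.76, 8.40 and 8.65).

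Glycosylation and delivery of TRAIL receptors to the surface involve several enzymes that were measured. Of 18 genes, limma called 2 higher and 0 lower (2 were lower at an unadjusted p under 0.05), with a median of 0.12. GALNT12, an enzyme that starts O-linked glycans, was 11.5-fold higher in U87MG (5.07, 5.07 and 5.66 against 8.75, 9.19 and 8.42). MARCHF8, a membrane ubiquitin ligase known to act on TNFRSF10A, was 2.36-fold higher. GALNT14 and GALNT3, relatives of GALNT12 that are known for modifying TRAIL receptors, gave 0.066 and -0.13 and were not called. The 2 calls rest on a probe set each, both of the kind that can match several genes, and without such probe sets 0 of 10 genes were called by limma, and 6 had an unadjusted p under 0.05.

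Transcription factors known to act on TRAIL or its receptor genes split in direction: of 19 measured, 1 was called higher, 2 lower and 16 neither, and the median was 0.015. IRF1, an interferon-induced activator, was 3.28-fold lower in U87MG (10.55, 10.12 and 10.45 against 8.80, 8.55 and 8.64). IRF7 was 3.05-fold lower (9.15, 8.94 and 9.42 against 7.72, 7.44 and 7.52). JUN, a subunit of AP-1, was 2.37-fold higher, on 3 of 4 probe sets.

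Interferon-stimulated genes, among which TRAIL is counted, had 4 higher, 12 lower and 12 neither of 28, with a median of log2 -0.88. On average over the list the arrays read 8.40, 8.13 and 8.48 in T98G and 7.60, 7.55 and 7.59 in U87MG. T98G replicate 2 was the lowest and replicate 3 the highest T98G array, the order that TNFSF10 had on 202688_at and 202687_s_at but not on 214329_x_at, where replicate 1 was lowest. No relation was tested. BST2, a tether of budding viruses, was 18.7-fold lower in U87MG and IFIT1, which binds viral RNA, 7.86-fold lower (9.24, 8.64 and 9.80 against 6.78, 6.23 and 5.74). IFI44L and HERC5 went the other way, at 12.7-fold and 9.48-fold higher. IRF1, IRF7 and IRF9 belong to both lists, so the calls of IRF1 and IRF7 are counted in each.

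**Figure D4:**
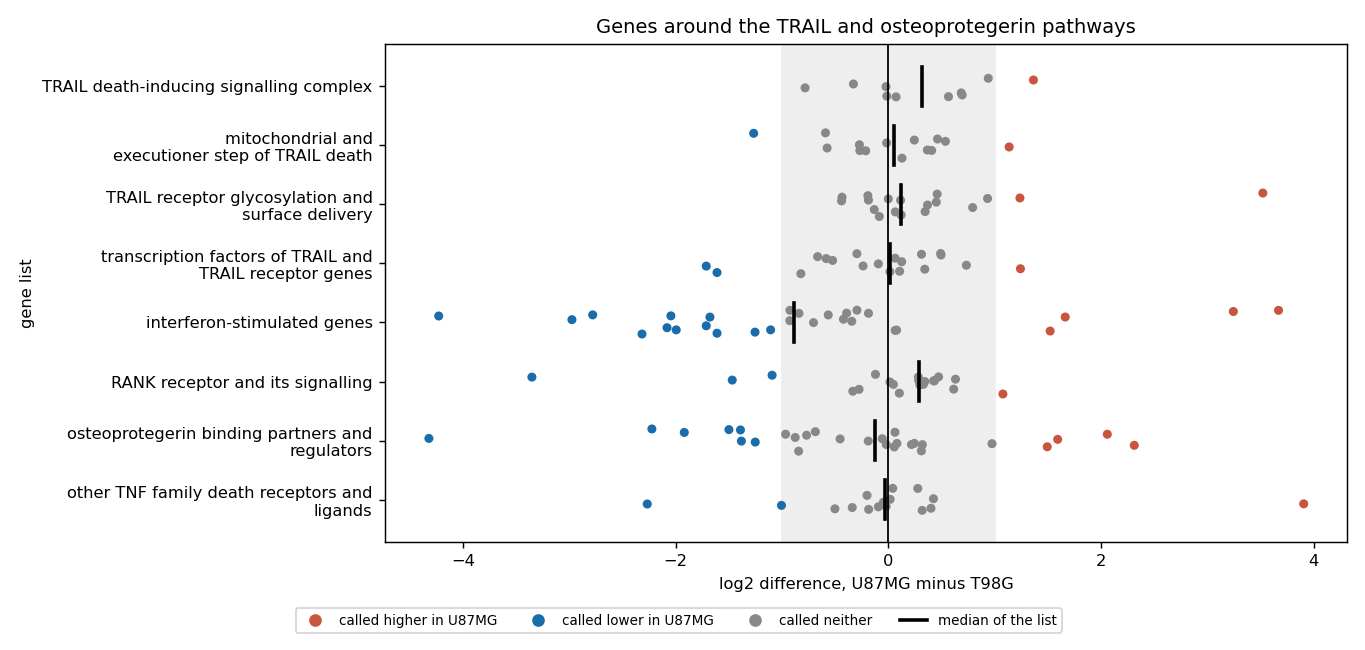
Log2 difference, U87MG minus T98G (horizontal axis), of each gene on its brightest probe set, in rows by gene list (vertical axis), red where called higher, blue where called lower and grey where neither, with a black bar at the list's median; vertical scatter within a row has no meaning and the grey band spans differences under 2-fold. The interferon-stimulated list has its median at -0.88, while the signalling complex list has its median at 0.32 and 1 called gene. The row of other death receptors and ligands also holds receptors that are not death receptors.

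Around osteoprotegerin, genes of RANK signalling had 1 higher, 3 lower and 16 neither of 20, with a median of 0.28. The higher gene was TNFRSF11A, given above. MAP3K14, the kinase of the alternative NF-kB pathway, was 10.2-fold lower in U87MG (11.11, 11.34 and 11.27 against 7.86, 8.00 and 7.80), and MITF, a transcription factor of osteoclasts, was 2.77-fold lower.

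Genes known to bind or regulate osteoprotegerin had 4 higher, 7 lower and 17 neither of 28, with a median of -0.12. TGFB2, a growth factor of the TGF-beta family, was 20.0-fold lower (10.30, 10.23 and 9.95 against 6.09, 5.74 and 5.68) on the brightest of its 4 probe sets, whose differences spanned log2 -4.32 to -0.60. LRP5, a Wnt co-receptor, was 4.67-fold lower. TCF7L2, a transcription factor of the Wnt pathway, was 4.97-fold higher, with 5 of 6 probe sets called, and the integrin gene ITGB3 was 4.17-fold higher, with 4 of 7 called. The Wnt genes LRP5 and TCF7L2 thus differed in opposite directions. Without probe sets that can match several genes, 5 of 23 genes of this list were called.

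Other receptors and ligands of the family, not all of them death receptors, had 1 higher, 2 lower and 13 neither of 16, with a median of -0.033. TNFRSF1B was 15.0-fold higher in U87MG, LTBR 4.81-fold lower and TNFRSF1A 2.01-fold lower. TNFRSF1A was at the 2-fold limit and lost its call under median centring, under repeated quantile normalization, without T98G replicate 3 and without U87MG replicate 2, with log2 differences from -1.06 to -0.91 over the alternatives.

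**Figure D5:**
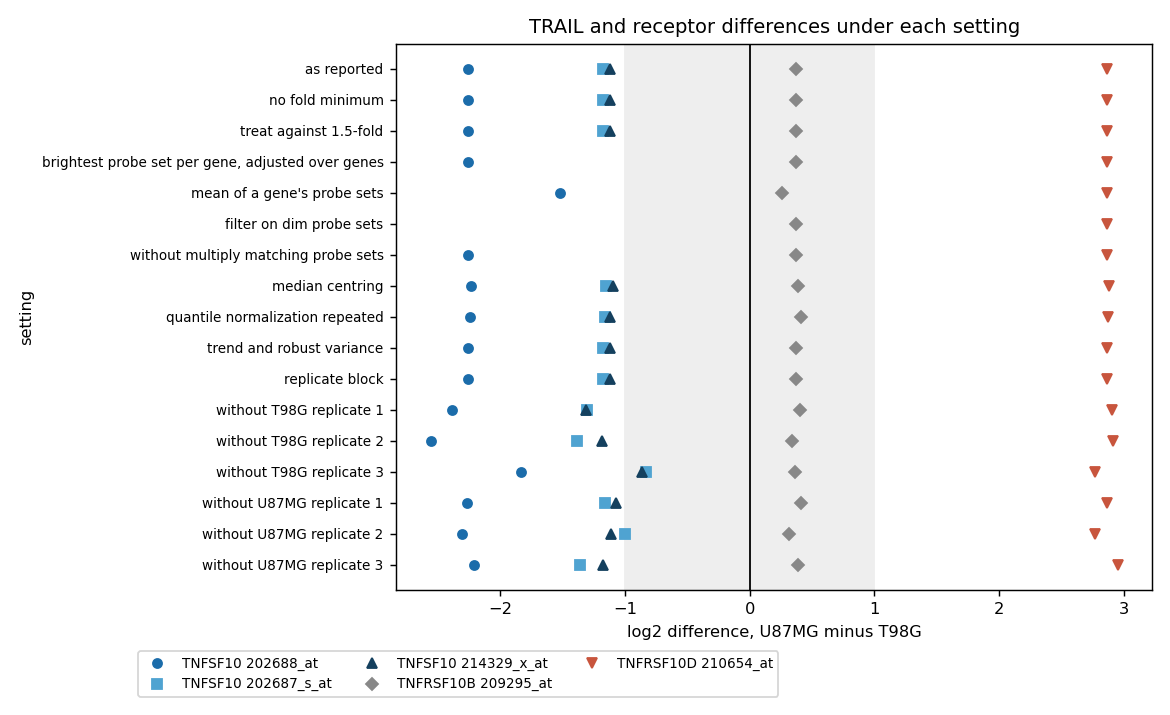
Log2 difference, U87MG minus T98G (horizontal axis), of the 3 TNFSF10 probe sets, 1 TNFRSF10B probe set and the TNFRSF10D probe set under each processing setting (vertical axis); a missing symbol means that the setting left the probe set out, and the grey band spans differences under 2-fold. The dimmer TNFSF10 probe sets enter the band without T98G replicate 3, at -0.83 and -0.86, while TNFRSF10D stays between 2.77 and 2.95.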

How the data were processed

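For 6 arrays (3 of T98G, 3 of U87MG) the authors deposited a log2 value for every probe set. The submitters' processing notes name RMA and limma, with no version. Background subtraction and equalising of arrays, as RMA does them, can hide a difference in total RNA and compress dim transcripts. Depth does not apply, and the number of arrays limits the precision (median residual SD 0.15). Gene names came from GEO's platform annotation. For 19052 of 19064 probe sets with 1 gene, the symbol was read by gene identifier from the RefSeq gene table of GRCh38.p14, whether or not it changed. Another 1043 had several genes, 2108 none and 62 were controls. All 22215 probe sets were fitted with limma 3.58.1 in R 4.3.3 (lmFit, eBayes, two-sided, Benjamini-Hochberg), after a test on simulated data. Promoter sequence is from RefSeq.

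Named genes were all members, up to 2 called genes per direction of each list, with some not called named for their role after values were seen, the 3 nearest profiles and the 3 neighbours on each side. The members and lists were chosen with earlier results of these data known. Alternatives changed the threshold, unit, filter, normalization, variance model, block and arrays.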

Additional observations from a re-analysis of the deposited data

How the results depend on the processing

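TNFRSF10D, both TNFRSF11B probe sets and TNFSF10 on 202688_at kept their direction and call in every alternative that left them a value. The filter on dim probe sets left no TNFSF10 probe set, so the low signal of TNFSF10 limits that call. Among all probe sets, TNFRSF10D lay at percentile 16.3 in T98G and those of TNFRSF11B at 25.7 and 24.5 in U87MG. They passed this filter through their brighter line, so keeping the call under it adds no support. With no fold minimum, 2 member probe sets were higher (TNFRSF10B joined at log2 0.37; 17.8% of all probe sets were higher by this rule). By the same rule 40.3% of all genes were called. The list counts were 6 (signalling complex), 7 (mitochondrial step), 10 (glycosylation and delivery), 12 (transcription factors), 10 (RANK), 18 (osteoprotegerin partners), 6 (other family receptors and ligands) and 24 of 28 (interferon-stimulated genes). Member probe sets called lower numbered 3 with limma's treat against 1.5-fold, which lost TNFSF10 on 202687_s_at and 214329_x_at, and 2 each with the brightest probe set per gene, averaging the probe sets of a gene, the filter on dim probe sets and without multiply matching probe sets, settings that test fewer probe sets of the family. The filter on dim probe sets left 2 RANK genes called, MAP3K14 and MITF, and removed TNFRSF11A. Without multiply matching probe sets (identifiers ending in _x_at, _s_at or _a_at), counts were 1 (mitochondrial step), 0 of 10 by limma (glycosylation and delivery, 6 at an unadjusted p under 0.05), 1 (transcription factors) and 5 (osteoprotegerin partners). With each array left out, 3 to 5 member probe sets were called lower and 1 to 2 genes of the signalling complex. Differences near 0 changed sign: TNFSF11 on 211153_s_at had -0.032 with its probe sets averaged and ran from -0.12 to 0.10 with each array left out, and TNFRSF10C on 211163_s_at ran from -0.022 to 0.093 with each array left out. Of 40 called genes of the lists, 4 lost the call under at least 1 alternative. They were TNFRSF1A, TRAF5 without T98G replicate 3, and GPC1 and VDR with probe sets averaged. For TNFRSF1A, the list of other family receptors and ligands had 2 genes left under median centring and repeated quantile normalization. Deviations of same-numbered arrays correlated at 0.15, 0.076 and 0.081 and those of differently numbered arrays at -0.10 to 0.0040, so each array correlated best with its own number, but not every pair exceeded 0.1 and the labels name no shared origin, so the numbers were not taken as pairs. With the replicate number as a block, 1 member probe set was higher and 5 were lower, as without it.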
